A study of Mus musculus with 12 samples.

Results

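Toll-like receptors (TLRs) are membrane proteins of innate immunity that recognize microbial products and molecules released from injured cells. The 10 genes described here are *Tlr1*, *Tlr2*, *Tlr3*, *Tlr4*, *Tlr5*, *Tlr6*, *Tlr7*, *Tlr8*, *Tlr9* and the coreceptor gene *Cd14*, chosen by symbol from the 53801 genes of the deposited matrices. All 10 passed the filter on low counts, which kept 15306 genes. The data were RNA sequencing of hearts from C57BL/6N mice, adult males per the study's methods, and the labels give no genetic change or test drug for any group. Acute myocardial infarction (AMI) was made by permanent ligation of the left anterior descending coronary artery, and hearts were taken 1 day (day 1 AMI) or 7 days (day 7 AMI) later. Hearts after sham surgery were the controls, and the labels gave no day for them. Each group had 4 hearts and 12 libraries were made in all, with each library labelled as 1 heart. The labels name the heart without a region and the study's methods name whole hearts, so a value after AMI mixes infarcted and uninjured muscle.

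TLRs of the plasma membrane (TLR1, TLR2, TLR4, TLR5 and TLR6) bind lipids and proteins outside the cell, while TLR3, TLR7, TLR8 and TLR9 bind nucleic acids inside endosomes. CD14 hands lipopolysaccharide and other ligands to the complex of TLR4 with MD-2. All of these receptors signal through the adaptor MyD88 except TLR3, which uses TRIF, and TLR4, which uses both. In the heart the receptors are carried by resident and infiltrating leukocytes and, for several of them, also by cardiomyocytes, fibroblasts and endothelial cells.

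The comparison of day 1 AMI with sham showed which receptor genes were higher within the first day. The 8 genes *Tlr1*, *Tlr2*, *Tlr4*, *Tlr6*, *Tlr7*, *Tlr8*, *Tlr9* and *Cd14* rose, none fell, and *Tlr3* and *Tlr5* did not pass the test (edgeR's quasi-likelihood test, Benjamini-Hochberg adjusted p below 0.05). Over all 15306 genes tested, 22.0% were higher and 19.9% were lower in this comparison. DEGs, which also needed a fold change (FC) of 2 or greater, were *Tlr1*, *Tlr2*, *Tlr8*, *Tlr9* and *Cd14*, 5 of the 10, against 7.79% of all genes as higher DEGs. By day 7 AMI all 10 exceeded sham, where 30.9% of all genes were higher and 28.4% lower, and 7 of the 10 were DEGs, against 15.3%. Between day 1 and day 7 AMI, 6 genes rose further (*Tlr2*, *Tlr3*, *Tlr6*, *Tlr7*, *Tlr8* and *Tlr9*), against 24.2% of all genes higher and 22.8% lower. Of these, *Tlr2* and *Tlr9* were DEGs, against 8.55% of all genes. The median log2 FC of the 10 genes was 1.02 for day 1 AMI and 1.77 for day 7 AMI against sham, where the medians of all genes were -0.01 and 0.03. In bulk tissue, more cells that carry a transcript and more transcript per cell cannot be told apart.

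**Figure D1:**
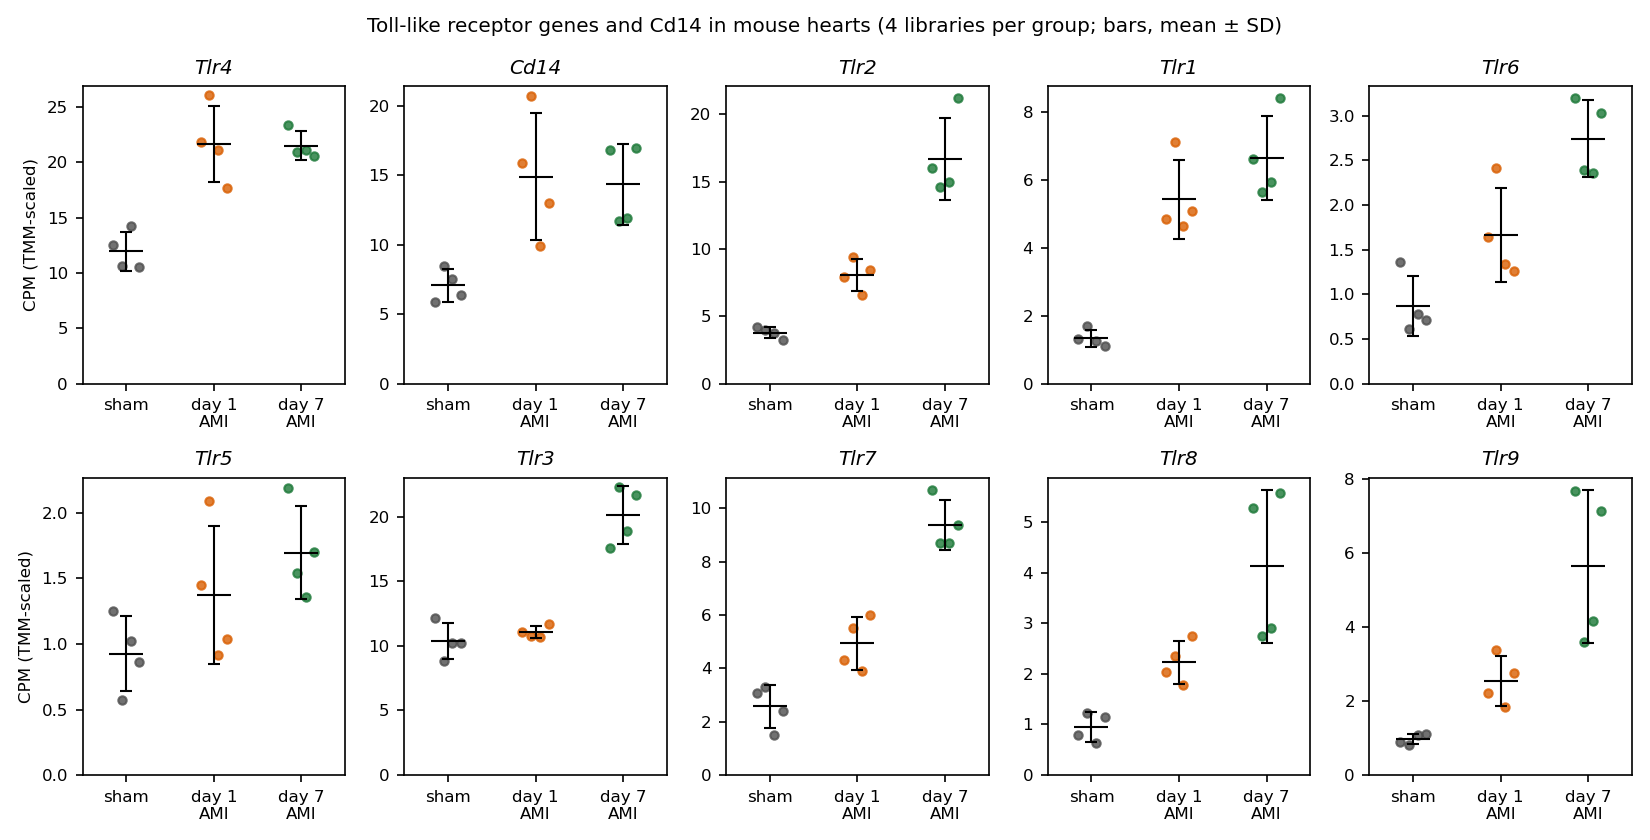
CPM (counts scaled to library depth with TMM) of the 10 genes in each library of the 3 groups, with points for hearts and bars for the mean ± SD of 4 hearts. *Tlr4* and *Cd14* stood at similar levels on both days, whereas *Tlr2*, *Tlr7*, *Tlr8* and *Tlr9* were higher on day 7 than on day 1, and *Tlr3* was higher on day 7 alone.

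*Tlr4* encodes the receptor for lipopolysaccharide and lies on chromosome 4 (chr4:66827584-66930284, GRCm38, plus strand). Its CPM was 12.5, 10.6, 14.2 and 10.5 in the 4 sham hearts, 21.8, 26.1, 21.1 and 17.7 on day 1 after AMI and 23.4, 20.9, 21.1 and 20.6 on day 7. Every heart after AMI was above every sham heart, while the hearts of day 1 and day 7 overlapped. The log2 FC was 0.86 (SE 0.125, adjusted p = 0.000158) for day 1 AMI and 0.85 (SE 0.126, adjusted p = 5.01e-05) for day 7 AMI against sham. Day 7 minus day 1 was -0.01, with a 95% interval of -0.27 to 0.25 (adjusted p = 0.942).

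*Cd14* had a CPM of 5.89, 8.50, 7.51 and 6.40 in the sham hearts, 15.9, 20.7, 9.94 and 13.0 on day 1 after AMI and 16.8, 11.7, 11.9 and 17.0 on day 7. The sham hearts lay below all others, and the spread within each AMI group was wide. Its log2 FC against sham was 1.07 (SE 0.212, adjusted p = 0.00131) on day 1 and 1.02 (SE 0.212, adjusted p = 0.000841) on day 7. The change between the days was -0.05, with a 95% interval of -0.48 to 0.38 (adjusted p = 0.858). The difference *Cd14* minus *Tlr4* in log2 CPM was -0.75 in the sham hearts, -0.58 on day 1 after AMI and -0.60 on day 7, and the exact two-sided permutation test did not separate any of the groups (lowest p = 0.514).

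Other partner genes of TLR4 are given with their own values, and their differences from *Tlr4* were not tested. *Ly96*, which encodes MD-2, the subunit that binds the lipid part of lipopolysaccharide, had a mean CPM of 0.969 ± 0.261 in the sham hearts, 1.01 ± 0.146 on day 1 after AMI and 1.05 ± 0.254 on day 7 (SD, n = 4). Its log2 FC was 0.04 on day 1 (adjusted p = 0.911) and 0.11 on day 7 (adjusted p = 0.739), on 14 to 42 counts per library. *Lbp*, the gene of the serum protein that carries lipopolysaccharide to CD14, had a log2 FC of -0.35 on day 1 (adjusted p = 0.147), was higher on day 7 than in sham by 0.49 (adjusted p = 0.0343) and rose by 0.84 between day 1 and day 7 (adjusted p = 0.002). *Tril*, a further TLR4 accessory gene, was at 9.96 CPM in the sham hearts, 7.78 on day 1 after AMI and 26.7 on day 7, and rose by 1.78 on the log2 scale between the days (adjusted p = 5.38e-07).

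*Tlr2* (chr3:83836272-83841767, GRCm38, minus strand) encodes the receptor for bacterial lipoproteins, which works in pairs with TLR1 or TLR6. Its CPM was 4.17, 3.98, 3.78 and 3.20 in the sham hearts, 7.91, 9.42, 6.54 and 8.41 on day 1 after AMI and 16, 14.6, 15 and 21.2 on day 7. None of the 3 groups overlapped. The log2 FC was 1.09 on day 1 (SE 0.156, adjusted p = 0.000137) and 2.14 on day 7 (SE 0.156, adjusted p = 1.11e-07), and the rise between the days was 1.05 (SE 0.145, adjusted p = 5.99e-05).

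*Tlr1*, whose product pairs with TLR2 on triacylated lipopeptides, had a CPM of 1.30, 1.68, 1.26 and 1.10 in the sham hearts, 4.85, 7.13, 4.64 and 5.07 on day 1 after AMI and 6.62, 5.64, 5.94 and 8.40 on day 7. The sham hearts were far below the others, and the hearts of both days overlapped. Its log2 FC of 2.01 on day 1 (SE 0.204, adjusted p = 1.78e-05) had the highest point estimate of the 10 genes in that comparison. On day 7 the log2 FC was 2.30 (SE 0.204, adjusted p = 5.69e-07), and the change between the days was 0.29, with a 95% interval of -0.09 to 0.68 (adjusted p = 0.195). That change passed on both TPM scales (log2 FC of up to 0.55, lowest adjusted p = 0.0255), where the median log2 FC of all genes was 0.184 and 0.245.

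*Tlr6*, whose product pairs with TLR2 on diacylated lipopeptides, had low counts, from 15 to 104 per library. Its CPM was 1.36, 0.616, 0.776 and 0.717 in the sham hearts, 1.64, 2.42, 1.34 and 1.26 on day 1 after AMI and 3.20, 2.39, 2.36 and 3.03 on day 7. The first sham heart lay within the range of day 1 AMI, while all day 7 hearts were above all sham hearts. The log2 FC was 0.96 on day 1 (SE 0.289, adjusted p = 0.0163) and 1.68 on day 7 (SE 0.284, adjusted p = 0.000156), and it rose by 0.72 between the days (SE 0.258, adjusted p = 0.0334). The day 1 call was lost without day 1 heart 2 (log2 FC 0.72, adjusted p = 0.0653), and the call between the days was lost with each of 5 hearts left out in turn (day 1 hearts 1, 3 and 4, day 7 hearts 1 and 4; adjusted p of up to 0.0937). Both calls were also lost on both TPM scales, with log2 FCs down to 0.23 on day 1 (adjusted p of up to 0.231) and 0.36 between the days (adjusted p of up to 0.139).

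*Tlr1* and *Tlr6* are neighbours on chromosome 5 (chr5:64924679-64933563 and chr5:64952031-64960097, GRCm38, both minus strand), 18467 bases apart with no annotated gene between them. They share sequence, so reads from one can align to the other. Of all 75-base stretches of their GENCODE transcripts, 10.6% of those of *Tlr1* and 9.25% of those of *Tlr6* also occur in another gene, and no other of the 10 genes shares any. The longest coding stretch they have in common is 229 bases long and begins at coding base 1468 of *Tlr1* and 1507 of *Tlr6*. It lies in a single exon of each gene, at chr5:64925537-64925765 and chr5:64953828-64954056. It is shown because fragments that lie wholly within it cannot be assigned by sequence. The study's methods name paired reads longer than 75 bases, so the share of ambiguous fragments may be smaller than the shares of 75-base stretches.
*Tlr1* and *Tlr6*, shared coding stretch: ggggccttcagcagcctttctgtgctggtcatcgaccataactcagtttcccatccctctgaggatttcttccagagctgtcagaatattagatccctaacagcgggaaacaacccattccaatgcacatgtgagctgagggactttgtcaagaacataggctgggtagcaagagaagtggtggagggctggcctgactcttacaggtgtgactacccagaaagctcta

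*Tlr1* and *Tlr6* were compared library by library. The difference *Tlr1* minus *Tlr6* in log2 CPM was -0.05, 1.35, 0.65 and 0.57 in the sham hearts, 1.52, 1.53, 1.74 and 1.95 on day 1 after AMI and 1.03, 1.21, 1.30 and 1.45 on day 7. All day 1 hearts lay above all hearts of the other groups, and sham overlapped with day 7. The difference *Tlr1* minus *Tlr2* was likewise higher in day 1 AMI (mean -0.58) than in sham (-1.46) and in day 7 AMI (-1.32), with no overlap with either group. Each of these day 1 contrasts reached p = 0.0286 in the exact two-sided permutation test, the smallest that 4 against 4 hearts allow. After adjustment over the 21 tests made it was 0.12, so none passed. A single contrast could not have passed this adjustment on its own, however far apart the groups lay. *Tlr6* minus *Tlr2* moved by -0.17 on day 1 (exact p = 0.486) and by -0.48 on day 7 against sham (exact p = 0.0571).

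*Tlr5*, which encodes the flagellin receptor (chr1:182954788-182976044, GRCm38, plus strand), was among the least abundant of the 10 genes, with 14 to 71 counts per library. Its CPM was 1.25, 0.575, 1.02 and 0.860 in the sham hearts, 1.45, 2.09, 0.915 and 1.04 on day 1 after AMI and 2.19, 1.54, 1.36 and 1.70 on day 7. Day 1 AMI overlapped with both other groups. The log2 FC was 0.58 on day 1 (SE 0.314, adjusted p = 0.152) and 0.89 on day 7 (SE 0.311, adjusted p = 0.0235). It passed on day 1 under the same 3 settings as *Tlr3* below (lowest adjusted p = 0.0221), and the day 7 call was lost without sham heart 2, without sham heart 4 and without day 7 heart 1, with adjusted p of up to 0.0745.

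*Tlr3* is the receptor gene for double-stranded RNA. Its CPM was 12.2, 8.82, 10.2 and 10.2 in the sham hearts, 11.1, 10.8, 10.7 and 11.7 on day 1 after AMI and 17.6, 22.3, 18.9 and 21.7 on day 7. The day 1 hearts lay inside the range of the sham hearts, and all day 7 hearts were above both groups. Day 1 minus sham was 0.10 on the log2 scale, with a 95% interval of -0.14 to 0.34 (adjusted p = 0.489). *Tlr3* passed on day 1 when counts were scaled by library size alone and on both TPM scales (lowest adjusted p = 0.00723), settings that raised the median log2 FC of all genes to at least 0.233. On day 7 the log2 FC was 0.96 against sham (SE 0.111, adjusted p = 5.41e-06) and 0.86 against day 1 AMI (SE 0.109, adjusted p = 2.97e-05). The difference *Tlr3* minus *Tlr7* in log2 CPM averaged 2.03 in the sham hearts, 1.18 on day 1 after AMI and 1.09 on day 7, and no exact permutation test of it passed after adjustment (lowest adjusted p = 0.12). *Tlr3* lies at chr8:45395665-45411080 (GRCm38, minus strand), and 7.32% of its exon bases overlap the antisense gene *Gm45542*, which had 1 count over the 12 libraries.

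*Tlr7* and *Tlr8*, receptor genes for single-stranded RNA, are neighbours on the X chromosome (chrX:167304929-167330558 and chrX:167242696-167264329, GRCm38, both minus strand), 40599 bases apart. The CPM of *Tlr7* was 3.08, 3.32, 1.5 and 2.39 in the sham hearts, 4.32, 5.52, 3.89 and 6.02 on day 1 after AMI and 10.7, 8.69, 8.70 and 9.38 on day 7. *Tlr8* had a CPM of 0.782, 1.23, 0.630 and 1.15 in the sham hearts, 2.03, 2.36, 1.77 and 2.74 on day 1 after AMI and 5.27, 2.74, 2.91 and 5.57 on day 7. For both genes the 3 groups did not overlap, although the lowest day 7 value of *Tlr8* was level with its highest day 1 value to the digits given.

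The log2 FC of *Tlr7* was 0.94 on day 1 (SE 0.217, adjusted p = 0.00359) and 1.86 on day 7 (SE 0.216, adjusted p = 5.60e-06), with a rise of 0.92 between the days (SE 0.201, adjusted p = 0.00189). The day 1 call of *Tlr7* was lost with log2(TPM + 1) (log2 FC 0.68, adjusted p = 0.0903). For *Tlr8* the log2 FC was 1.22 on day 1 (SE 0.301, adjusted p = 0.00541), 2.11 on day 7 (SE 0.296, adjusted p = 3.12e-05) and 0.89 between the days (SE 0.266, adjusted p = 0.0133). The last of these was lost without day 7 heart 4 (adjusted p = 0.0531). The difference *Tlr8* minus *Tlr7* in log2 CPM averaged -1.36 in the sham hearts, -1.12 on day 1 after AMI and -1.24 on day 7, and no exact test separated the groups (lowest p = 0.314).

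*Tlr9*, the receptor gene for unmethylated CpG DNA (chr9:106222598-106226883, GRCm38, plus strand), had the highest point estimate of the 10 genes on day 7. Its CPM was 0.886, 0.821, 1.07 and 1.10 in the sham hearts, 2.22, 3.37, 1.83 and 2.77 on day 1 after AMI and 7.67, 3.59, 4.17 and 7.14 on day 7. None of the groups overlapped, and day 7 hearts 1 and 4 lay far above day 7 hearts 2 and 3. The log2 FC was 1.40 on day 1 (SE 0.295, adjusted p = 0.00197), 2.54 on day 7 (SE 0.290, adjusted p = 4.82e-06) and 1.15 between the days (SE 0.256, adjusted p = 0.00226). Counts of *Tlr9* in sham were only 17 to 23 per library.

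**Figure D2:**
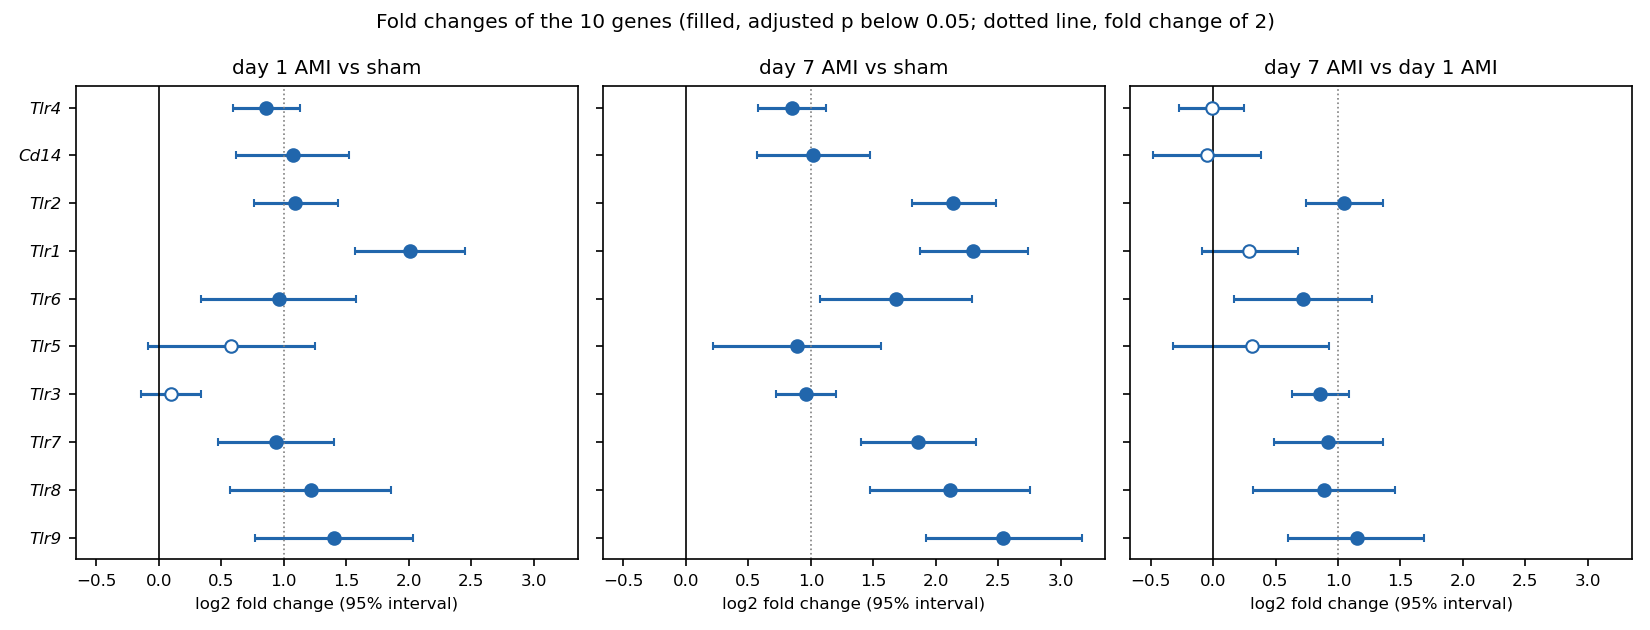
Log2 FC of the 10 genes with 95% intervals for day 1 AMI against sham, day 7 AMI against sham and day 7 against day 1 AMI. Filled points passed an adjusted p of 0.05; all 10 genes did so for day 7 AMI against sham, 8 for day 1 AMI against sham and 6 between the days.

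The libraries of the groups compared did not overlap for 7 of the 10 genes in day 1 AMI against sham (19.6% of all genes in that direction), for 10 in day 7 AMI against sham (28.3%) and for 5 in day 7 against day 1 AMI (23.5%). One edgeR contrast asked, for each gene on its own, whether its steps were equal in size. The change from sham to day 1 was subtracted from the change from day 1 to day 7. The genes were not tested against each other. This contrast was chosen after the values were seen. The second step was smaller than the first for 3 of the 10 genes, against 17.1% of all genes, and larger for 1, against 15.9%. The 3 genes were *Tlr1* (difference in log2 FC -1.72, SE 0.319, adjusted p = 0.00121), *Tlr4* (-0.87, SE 0.210, adjusted p = 0.00609) and *Cd14* (-1.12, SE 0.350, adjusted p = 0.0254). The call of *Cd14* was lost without day 1 heart 1 (-1.06, adjusted p = 0.0695) or without day 1 heart 2 (-0.72, adjusted p = 0.131). *Tlr3* had the larger second step (0.76, SE 0.193, adjusted p = 0.0086). For *Tlr2* the difference of the steps was -0.05, with a 95% interval of -0.59 to 0.50, and for *Tlr7* it was -0.01, with an interval of -0.75 to 0.72. The intervals of *Tlr5*, *Tlr6*, *Tlr8* and *Tlr9* reached at least 0.71 above and 1.23 below 0, so that sizeable differences between their steps were not excluded.

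**Figure D3:**
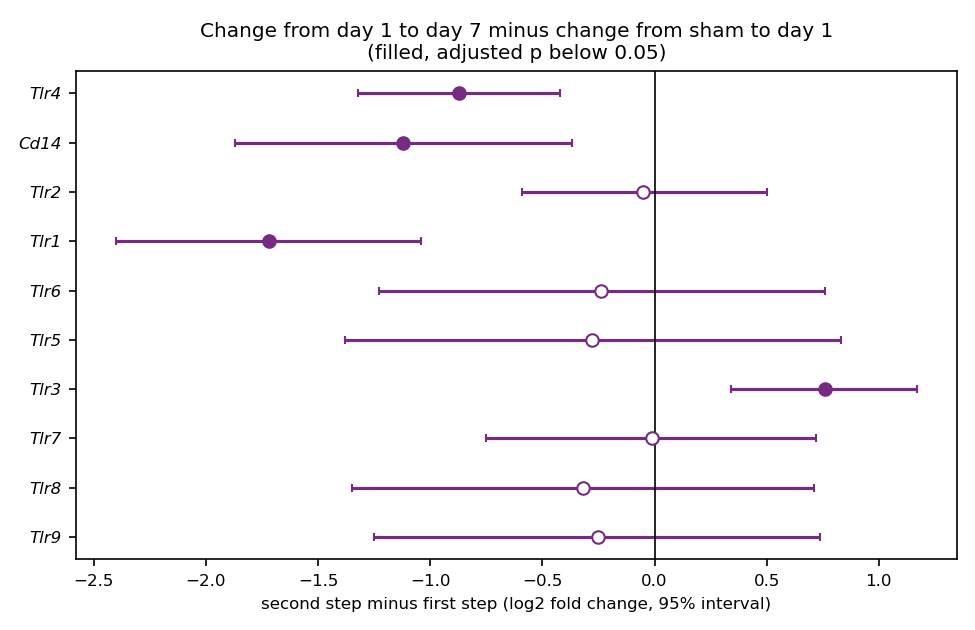
The change from day 1 to day 7 AMI minus the change from sham to day 1 AMI for the 10 genes, in log2 FC with 95% intervals. *Tlr1*, *Tlr4* and *Cd14* lay below 0 and *Tlr3* above 0 at an adjusted p under 0.05 (filled points).

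Promoter sequences are shown for *Tlr2* and *Tlr9*, called higher at both steps, *Tlr1*, with the smaller second step, and *Tlr3*, called higher only after day 1. They are RefSeq windows of GRCm38.p6 from 250 bases before to 50 bases after an annotated start, which lies 700 bases from the GENCODE start of *Tlr3*, 159 bases from that of *Tlr2*, 5 bases from that of *Tlr1* and at that of *Tlr9*. Windows were matched for 7 of the 10 genes and none were listed for *Tlr4*, *Tlr7* and *Cd14*. The windows lie at chr3:83841559-83841858 (*Tlr2*, minus strand), chr9:106222348-106222647 (*Tlr9*, plus strand), chr5:64933509-64933808 (*Tlr1*, minus strand) and chr8:45410331-45410630 (*Tlr3*, minus strand). Capitals mark matches on either strand to the NF-kB consensus, PU.1 (GAGGAA), AP-1 (TGANTCA), C/EBP (TTGCNNAA), GAS (TTCNNNGAA), ISRE or the TATA box (TATAAA).
*Tlr2*: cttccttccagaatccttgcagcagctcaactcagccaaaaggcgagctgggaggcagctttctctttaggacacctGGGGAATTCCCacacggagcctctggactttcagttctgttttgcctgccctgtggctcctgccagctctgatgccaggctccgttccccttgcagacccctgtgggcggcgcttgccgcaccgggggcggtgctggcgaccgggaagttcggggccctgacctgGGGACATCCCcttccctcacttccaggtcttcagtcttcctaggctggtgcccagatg
*Tlr9*: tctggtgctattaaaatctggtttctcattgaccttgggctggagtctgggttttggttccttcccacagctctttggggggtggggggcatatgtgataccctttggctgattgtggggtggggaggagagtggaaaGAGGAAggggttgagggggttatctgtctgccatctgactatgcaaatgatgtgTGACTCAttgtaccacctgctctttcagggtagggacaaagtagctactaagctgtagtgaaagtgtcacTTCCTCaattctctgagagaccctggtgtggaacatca
*Tlr1*: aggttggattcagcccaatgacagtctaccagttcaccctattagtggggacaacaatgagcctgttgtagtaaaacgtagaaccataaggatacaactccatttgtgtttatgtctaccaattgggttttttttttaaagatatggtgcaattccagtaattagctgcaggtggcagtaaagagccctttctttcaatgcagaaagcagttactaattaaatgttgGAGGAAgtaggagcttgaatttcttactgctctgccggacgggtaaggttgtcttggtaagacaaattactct
*Tlr3*: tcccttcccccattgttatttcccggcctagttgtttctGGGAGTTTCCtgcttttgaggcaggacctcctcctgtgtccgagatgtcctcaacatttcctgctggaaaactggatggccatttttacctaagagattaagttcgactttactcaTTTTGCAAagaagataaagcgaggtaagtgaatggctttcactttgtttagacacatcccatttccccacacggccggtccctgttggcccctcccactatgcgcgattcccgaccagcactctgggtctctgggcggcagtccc

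In these windows *Tlr2* held NF-kB matches that begin at -173 and -172, which overlap, and at -8 from the start, and *Tlr3* held one at -211. Of all 32851 windows, 8.46% held the NF-kB consensus. *Tlr9* held PU.1 matches at -112 and 13 and an AP-1 match at -58, and *Tlr1* held a PU.1 match at -23. PU.1 letters were in 28.3% of all windows and AP-1 letters in 7.81%. C/EBP letters, found in *Tlr3* at -95 and also in *Tlr8*, were in 10.8% of all windows. GAS and TATA letters were each in the windows of *Tlr6* and *Tlr8*, against 8.30% and 13.6% of all windows, and ISRE letters, in 3.44% of all windows, were in none of the 7 windows used. The window used was the one nearest the GENCODE start. Further windows were listed for *Tlr6* and *Tlr1*, 931 and 864 bases from that start. That of *Tlr6* held ISRE matches at -116 and -110 and a C/EBP match at -89, and that of *Tlr1* held a GAS match at -228.

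Levels were compared between genes in TPM, a measure of transcript abundance scaled by transcript length and by library. In sham the mean TPM was 5.94 ± 1.36 for *Cd14*, 3.69 ± 0.714 for *Tlr4*, 3.14 ± 0.194 for *Tlr3*, 1.49 ± 0.189 for *Tlr2* and 0.923 ± 0.405 for *Tlr7* (SD, n = 4). The other 5 genes lay below, from 0.645 ± 0.135 for *Tlr1* to 0.325 ± 0.048 for *Tlr9*. *Cd14* was above *Tlr4* in each of the 4 sham hearts although their ranges overlapped, *Tlr3* and *Tlr2* did not overlap, and each neighbouring pair below *Tlr2* overlapped. In day 1 AMI the order began with *Cd14* (15.5 ± 4.76), *Tlr4* (8.62 ± 1.43), *Tlr3* (4.81 ± 0.546), *Tlr2* (3.98 ± 0.655) and *Tlr1* (2.90 ± 0.609), and *Tlr6* and *Tlr5* were last. *Tlr4* and *Tlr3* were the only neighbours in this order whose ranges did not overlap.

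In day 7 AMI *Cd14* (17.6 ± 4.13 TPM) did not overlap with *Tlr4* (10.4 ± 0.832), and *Tlr4*, *Tlr3* (9.99 ± 2.31) and *Tlr2* (9.71 ± 2.09) overlapped with one another. *Tlr9*, last in sham, was eighth on both days after AMI, with 1.07 ± 0.298 TPM on day 1 and 2.81 ± 1.09 on day 7. *Tlr7* had 3.78 to 6.45 TPM in day 7 hearts 1 to 3 and 15.63 TPM in heart 4, although heart 4 had 276 counts against 225 to 349 in the others. The TPM of *Tlr7* per CPM without TMM scaling was 1.42 in that library and had a median of 0.387 over the 12 libraries. Its level in day 7 heart 4 therefore depends on the deposited table used, and the cause was not tested. The same measure was 0.907 and 0.974 for *Tlr6* in sham hearts 1 and 3, against a median of 0.413, and 1.18 for *Tlr8* in sham heart 1, against 0.548, so the places of these genes in the sham order also depend on the table.

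**Figure D4:**
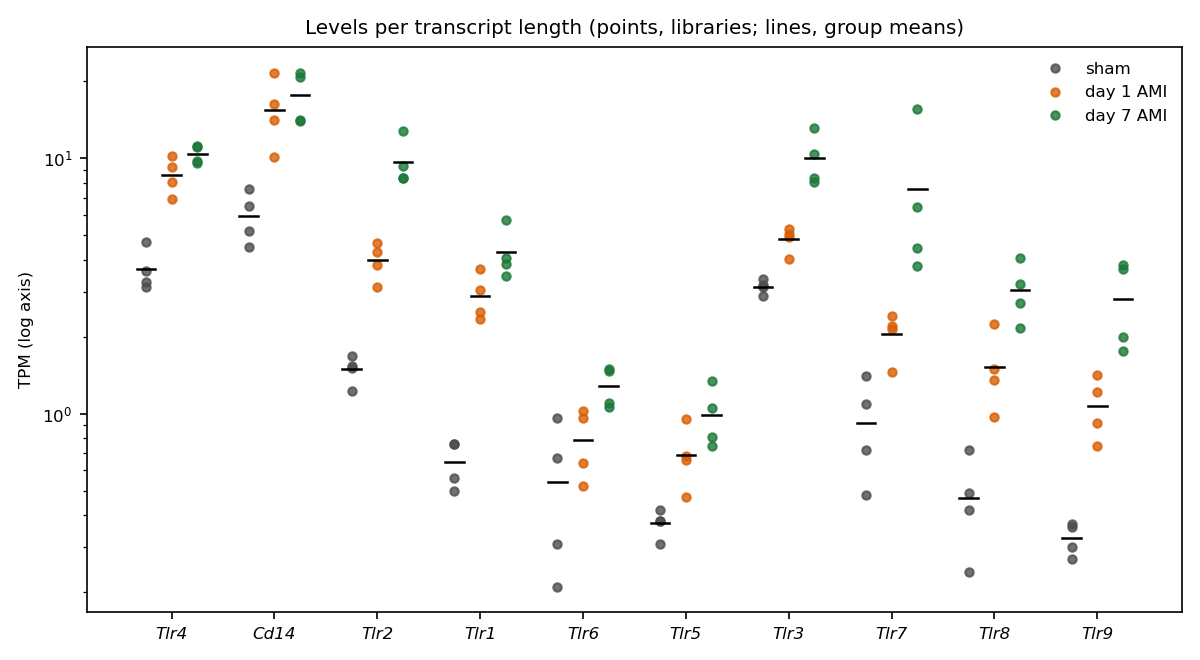
TPM of the 10 genes in each library on a log axis, with group means as lines. *Cd14* and *Tlr4* had the highest mean TPM in all groups, although *Tlr4* overlapped with *Tlr3* in sham and on day 7. The TPM of *Tlr7* in one day 7 heart was 15.63, against 3.78 to 6.45 in the other 3.

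Cell type markers were measured in the same libraries, and the shares of all genes given above for each comparison are the background of their counts. All 10 pan-leukocyte markers, such as *Ptprc* (CD45) and *Itgb2*, rose in day 1 AMI, with a median log2 FC of 1.69, and all 10 exceeded sham on day 7 (median 1.94). Their summed CPM was 82.3 to 143 in the sham hearts, 308 to 450 on day 1 after AMI and 317 to 518 on day 7. The sum in the monocyte and macrophage list of 14 genes was 345 to 543, 630 to 910 and 945 to 1450. Of these genes, 9 of 14 were higher on day 1 and 13 of 14 on day 7 against sham. The remaining gene, *Cd163*, was lower on day 7 than in sham (log2 FC -0.69, adjusted p = 0.0112). Neutrophil markers (10 genes, 9 tested) summed to 2.91 to 60.7 CPM in the sham hearts, 50.8 to 186 on day 1 after AMI and 8.69 to 40.3 on day 7, and 7 of the 9 fell between the days. No marker of these lists was at 0 in all libraries of a group, although *Ly6g*, a defining neutrophil gene, averaged at most 0.108 CPM. Their part in the changes of the receptor genes was not tested.

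B cells, which express *Tlr9*, left low signals in these hearts. The 6 B cell markers summed to 2.13 to 7.17 CPM in the sham hearts, 3.06 to 6.54 on day 1 after AMI and 6.99 to 8.46 on day 7, and none of the 6 passed the test on day 1. On day 7 *Cd79b* (log2 FC 1.07, adjusted p = 0.0247) and *Cd22* (1.46, adjusted p = 0.002) were higher than in sham, and *Cd22* rose by 1.37 between the days (adjusted p = 0.00346), as *Tlr9* did. Of the dendritic cell list of 8 genes 6 were tested. *Flt3* (1.75 and 2.44, adjusted p = 0.0104 and 0.00046) and *Cd209a* (2.11 and 2.91, adjusted p = 0.00372 and 0.000114) were higher than in sham on day 1 and day 7, and *Zbtb46* on day 7 (0.34, adjusted p = 0.00273). *Clec9a* was lower than in sham on day 1 (-0.58, adjusted p = 0.0355). The list summed to 23.9 to 26.3 CPM in the sham hearts, 22.9 to 24.5 on day 1 after AMI and 30.9 to 38.3 on day 7. Most of this sum was *Zbtb46*, with a mean CPM of 20.1 in sham, 18.7 on day 1 and 25.4 on day 7. The sum therefore says little about the other genes of the list. *Siglech*, which marks plasmacytoid dendritic cells, did not pass the low-count filter, with at most 0.379 CPM on average. Endothelial markers were lower on day 1 in 3 of 6 and higher between the days in 6 of 6, and fibroblast markers were higher on day 7 than in sham in 6 of 6. Cardiomyocyte markers, which check the labelled tissue, summed to at least 40500 CPM in every heart and were lower than in sham in 7 of 8 on both days. The part of these cell types in the changes of the receptor genes was not tested. The erythroid sum was 4450 CPM in sham heart 2 and 241 to 1180 in the other 11 hearts. Leaving that heart out ended the day 7 call of *Tlr5* and no other call of the 10 genes.

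The log2 CPM of each receptor gene was set against the mean log2 CPM of the 10 leukocyte markers. None of the 30 exact permutation tests made passed after adjustment. The smallest exact p with 4 against 4 hearts is 0.0286. No single test could therefore pass this adjustment on its own, however far apart the groups lay. *Tlr4* minus the list was 0.31, 0.07, 1.04 and 0.76 in the sham hearts, -0.30, -0.39, -0.11 and -0.48 on day 1 after AMI and -0.71, -0.33, -0.25 and -0.99 on day 7. All sham hearts were thus above all others. *Tlr3* (sham mean 0.34, day 1 mean -1.27, day 7 mean -0.67) and *Tlr5* (-3.08, -4.28 and -4.19) likewise had sham hearts above all AMI hearts, for *Tlr5* only by the step from -3.99 to -3.98. *Cd14* minus the list was -0.77 to 0.13 in sham and -1.26 to -1.07 in day 7 AMI, without overlap (exact p = 0.0286, adjusted p = 0.0779). *Tlr1* minus the list was -2.89 to -2.38 in the sham hearts, -2.45 to -2.25 on day 1 after AMI and -2.52 to -2.07 on day 7, so that the groups overlapped.

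*Tlr2* minus the leukocyte list had a mean of -1.09 in the sham hearts, -1.73 on day 1 after AMI and -0.95 on day 7, and day 1 lay below both other groups without overlap. For *Tlr9* the means were -2.98, -3.39 and -2.56, with day 7 above day 1 in all hearts. Of the 30 exact two-sided permutation tests, 11 reached the smallest p of 0.0286 (adjusted p = 0.0779). Within day 7 AMI, hearts 1 and 4 had higher leukocyte sums than hearts 2 and 3 (500 and 518 CPM, against 346 and 317). Hearts 1 and 4 were also above hearts 2 and 3 in CPM for *Tlr1*, *Tlr2*, *Tlr5*, *Tlr6*, *Tlr7*, *Tlr8*, *Tlr9* and *Cd14*. For *Tlr3* and *Tlr4* they were not. A link between the sums and the receptor genes within day 7 AMI was not tested.

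**Figure D5:**
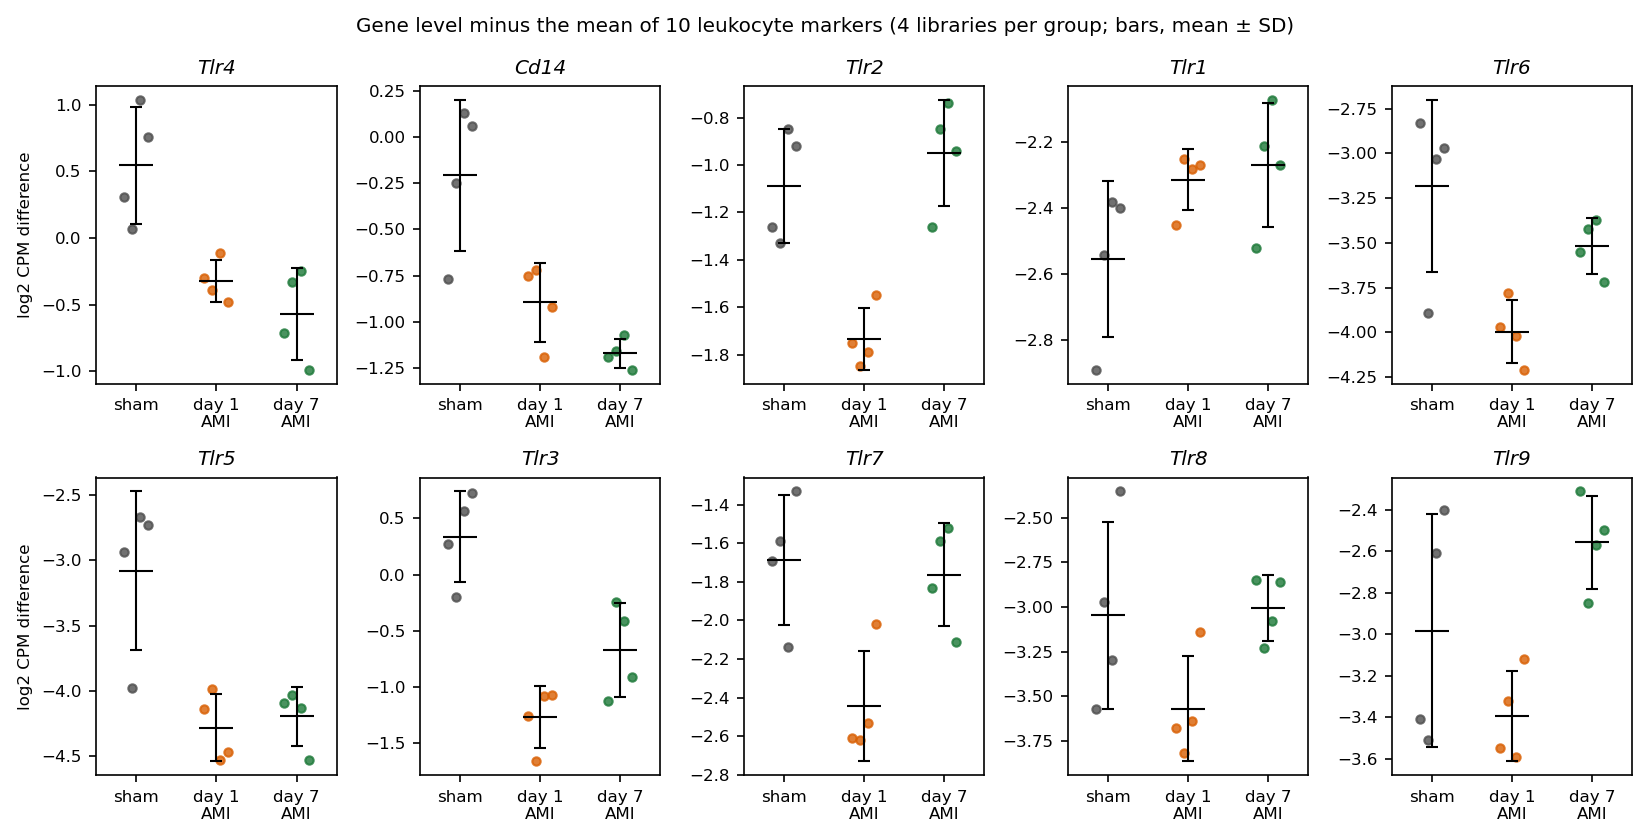
Log2 CPM of each of the 10 genes minus the mean log2 CPM of 10 leukocyte markers, with points for hearts and bars for the mean ± SD of 4 hearts. *Tlr3*, *Tlr4* and *Tlr5* were lower in all AMI hearts than in all sham hearts on this scale, although no test passed after adjustment, and *Tlr2* was lowest on day 1.

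Genes that bind, fold, carry, cleave or resemble the receptors, both of the plasma membrane and of endosomes, were examined as a list of 18 partners, of which *Tlr11* and *Tlr12* had too few counts to be tested. Of the 16 tested, 11 rose and 2 fell on day 1, and 10 were higher and 1 lower on day 7 against sham, with median log2 FCs of 0.62 and 0.71. Among all genes, 22.0% were higher and 19.9% lower on day 1, and 30.9% and 28.4% on day 7. *Unc93b1*, which carries the endosomal receptors out of the endoplasmic reticulum, had a CPM of 19.9 ± 2.65 in the sham hearts, 32.9 ± 5.44 on day 1 after AMI and 66.9 ± 14.5 on day 7, and rose at both steps (log2 FC 0.73, adjusted p = 0.00247, and 1.02, adjusted p = 0.000126). *Ctss*, a protease that cleaves these receptors, rose by 1.87 on day 1 (adjusted p = 0.00012) and by a further 1.15 between the days (adjusted p = 0.00173). Of the other proteases, *Ctsb* rose at both steps (0.29 and 0.35, adjusted p = 0.0201 and 0.0059), *Lgmn* rose on day 1 (0.88, adjusted p = 5.4e-05) and *Ctsl* fell on day 1 (-0.31, adjusted p = 0.0478). The chaperone genes *Hsp90b1* and *Cnpy3*, which fold most TLRs, rose on day 1 (0.69 and 0.56, adjusted p = 0.00426 and 0.00443) and fell between the days (-0.63 and -0.34, adjusted p = 0.00612 and 0.0489).

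*Tlr13*, which encodes a receptor for bacterial ribosomal RNA, rose by 2.25 on day 1 (adjusted p = 0.000145) and had a change of 0.02 between the days (adjusted p = 0.959). *Cd180* and *Ly86*, whose products form a TLR-like complex, rose at both steps, by 1.77 and 0.93 for *Cd180* (adjusted p = 6.78e-05 and 0.00152) and by 1.06 and 1.41 for *Ly86* (adjusted p = 0.00215 and 0.000106). *Slc15a3*, an endolysosomal transporter, rose by 1.78 on day 1 (adjusted p = 0.000202), and *Slc15a4* by 0.42 (adjusted p = 0.02). *Cd36*, a fatty acid transporter of cardiomyocytes that also serves as a TLR2 coreceptor, fell at each step (-0.62 and -0.34, adjusted p = 0.00116 and 0.0328).

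Among the adaptors, 5 of 6 were tested (*Sarm1* had too few counts), 3 rose on day 1, 4 were higher on day 7 than in sham, and none passed the test between the days. Of all genes, 22.0% were higher on day 1 and 30.9% on day 7 against sham. Between the days 24.2% of all genes were higher and 22.8% lower. *Myd88* had a CPM of 16.4 ± 2.45 in the sham hearts, 27.8 ± 4.62 on day 1 after AMI and 23.7 ± 4.24 on day 7, with log2 FCs of 0.76 and 0.53 against sham (adjusted p = 0.00119 and 0.00705). *Ticam1*, the gene of TRIF, rose by 0.62 and 0.50 (adjusted p = 0.000525 and 0.00108), and *Pik3ap1* by 1.67 and 2.18 (adjusted p = 0.000149 and 3.75e-06). *Tirap*, the bridging adaptor of TLR2 and TLR4, had log2 FCs of 0.16 and 0.00 (adjusted p = 0.413 and 0.984). *Ticam2*, the bridging adaptor of TRIF, was at 0.74 on day 1 (adjusted p = 0.0517) and 0.97 on day 7 (adjusted p = 0.00912).

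Of 18 kinases and ubiquitin ligases, 6 rose and none fell on day 1 (22.0% and 19.9% of all genes), and 7 were higher and 4 lower on day 7 against sham (30.9% and 28.4% of all genes), shares near those of all genes on day 7. *Ikbke* (1.79, adjusted p = 8.41e-05) and *Btk* (1.46, adjusted p = 5.56e-05) had the highest day 1 log2 FCs of that list. Of 7 transcription factors, 4 rose on day 1 and 5 were higher on day 7, with *Irf5* (1.75, adjusted p = 8.2e-05) and *Irf8* (1.15, adjusted p = 0.000487) first on day 1. *Irf7*, the interferon regulator downstream of TLR7 and TLR9, rose on day 1 (0.94, adjusted p = 0.00735) and again between the days (0.91, adjusted p = 0.00614).

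Of the 12 inhibitors, 5 rose and 2 fell on day 1, with a median log2 FC of -0.11, and 4 were higher and 1 lower on day 7 against sham, beside the same shares of all genes. *Tnfaip3* (A20) rose by 0.72 (adjusted p = 0.0048) and *Socs1* by 1.05 (adjusted p = 0.0421), while *Tollip* was lower on day 7 than in sham (-0.56, adjusted p = 2.71e-05). Of 16 genes that TLR signalling is known to induce 13 were tested. On day 1, 12 rose, with a median log2 FC of 3.00 (22.0% of all genes were higher). By day 7, 11 were higher than in sham, with a median of 2.14 (30.9% of all genes were higher).

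These output genes parted between the days, when 3 rose and 4 fell, against 24.2% and 22.8% of all genes. *Il1b* and *Ccl2* fell by 1.85 and 2.53 on the log2 scale (adjusted p = 0.00216 and 0.000338), and *Cxcl1* and *Cxcl2* by 2.04 and 3.31 (adjusted p = 0.000527 and 0.00169). *Il1b* was at 0.400 CPM in the sham hearts, 6.33 on day 1 after AMI and 1.74 on day 7. *Cxcl10* and *Ccl5* rose between the days, from 4.17 to 9.80 CPM and from 1.27 to 4.53 CPM (adjusted p = 0.0114 and 0.00275). Of the 10 receptor genes none fell between the days.

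Among 12 genes of host-derived TLR ligands, 11 were tested, 7 rose on day 1 (22.0% of all genes), and 5 were higher and 1 lower on day 7 than in sham (30.9% and 28.4% of all genes). *Tnc* (tenascin C), a TLR4 ligand, was at 0.804 CPM in the sham hearts, 88.7 on day 1 after AMI and 103 on day 7 (log2 FC 6.77 and 6.99, adjusted p = 9.61e-06 and 7.16e-07). *Bgn* (biglycan) and *Fn1* (fibronectin) rose on day 1 by 0.54 and 2.02 (adjusted p = 0.00277 and 0.000263) and again by 2.17 and 2.67 between the days (adjusted p = 3.18e-08 and 1.95e-05). *Hspa1a* rose by 3.00 on day 1 (adjusted p = 0.00213) and fell by 2.62 between the days (adjusted p = 0.00298). *Hmgb1*, an abundant nuclear ligand, had log2 FCs of -0.06 on day 1 and -0.15 on day 7 (adjusted p = 0.519 and 0.0709).

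Over the 12 libraries, which share the 3 groups, the log2 CPM of the 10 genes rose and fell together to different degrees. The highest Pearson correlation between any 2 of them was 0.963 for *Tlr2* and *Tlr9*, followed by 0.953 for *Tlr8* and *Tlr9*, and the lowest was 0.412 for *Tlr3* and *Cd14*. Of 13433 genes with a mean of at least 1 CPM, those closest to *Tlr9* were *Il10ra* (0.986), *Cmtm7* (0.985) and *Mpeg1* (0.978). *Tlr1* was closest to *Rab7b* (0.990), *Il21r* and *Ikbke* (0.988 each), and *Tlr2* to *Ly9* (0.988) and *Tmem45a* (0.987). *Tlr3* was closest to *Cep162* (0.989), *Sema3d* (0.986) and *Fmr1* (0.983), and *Tlr4* to *Dpysl3* (0.969), *Uba2* (0.967) and *S100a10* (0.964).

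For *Cd14* the nearest genes were *Kbtbd11* (0.970), *Was* (0.969) and *Ncf4* (0.966), for *Tlr7* they were *Rgs10* (0.977), *Cdca8* and *Slc9a9* (0.974 or more for both), and for *Tlr8* they were *Tcirg1* (0.972), *Tep1* (0.971) and *Ppm1m* (0.969). *Tlr5* and *Tlr6* both had *5430427O19Rik* among their nearest genes (0.936 and 0.977), with *Peak1* first for *Tlr5* (0.955) and *Cttnbp2nl* first for *Tlr6* (0.979). These values describe likeness across groups of hearts and carry no test.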

How the data were processed

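RNA was sequenced from 12 mouse hearts (4 sham, 4 day 1 AMI and 4 day 7 AMI), grouped by the library labels. The authors aligned reads to GRCm38 (mm10) with STAR 2.4.0j and quantified them with RSEM, and CASAVA 1.8 is also named in the submitters' notes. The authors deposited raw counts per gene, whole numbers without normalization, and TPM for the same 53801 genes, which are scaled by transcript length and library. The strand counted and the tool behind the counts are not given in the sources used here. The depth was 23204551 to 32166517 counts per library, and a floor of 3 counts was 0.0895 to 0.156 CPM, for counting error only. Libraries of one group differed by a chi-square per degree of freedom of at least 9.41.

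Counts were tested with edgeR 4.0.16 (TMM, filterByExpr, quasi-likelihood test) in R 4.3.3 on one fit of 3 groups, with Benjamini-Hochberg adjustment over 15306 genes. The study's methods use DESeq2, which served as an alternative (1.42.0), beside limma 3.58.1 on log2(TPM + 1) and log2(TPM + 0.1), RLE size factors, library sizes alone, no filter, only the groups compared, a block for the replicate number, and each heart left out in turn. Log2 CPM had a prior count of 2, or 0.5 as an alternative. Ratios between genes were compared with exact two-sided permutation tests in Python 3.11.15. All 10 genes were named, and their partners and adaptors could be; from other lists, up to 4 genes per comparison with the largest absolute log2 FC at an adjusted p under 0.05 and at least 1 CPM in the higher group were eligible, as were the markers needed to describe a list and the 3 most alike genes of each of the 10 genes (some of which are not reported here), and *Hmgb1* was named after its values were seen. The genes and lists were chosen with earlier results of these data known. The labels do not say more of the hearts than their replicate number, so p-values measure the spread between libraries. The fits were tested on simulated data before use. Gene positions and transcripts came from GENCODE M21 and promoters from RefSeq, both of GRCm38, the build of the counts.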

Additional observations from a re-analysis of the deposited data

How the results depend on the processing

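With DESeq2, RLE size factors, no filter, only the groups compared or the replicate block, all 30 calls of the 10 genes stood. These calls rest on adjusted p alone, without the FC that DEGs also needed. DEGs on day 7 against sham, 7 in the main fit, were 6 with DESeq2 and 6 with RLE size factors. The replicate block left 8, 10 and 6 genes higher (day 1 AMI against sham, day 7 AMI against sham, day 7 against day 1 AMI). Same-numbered libraries correlated between -0.244 and 0.229 in their deviations from group means, and 4 of 12 such pairs were above 0.1. These values cannot decide whether the numbers pair the hearts. Library sizes alone moved the median log2 FC of all genes to 0.259, 0.425 and 0.148, log2(TPM + 1) moved it to 0.233, 0.437 and 0.184, and log2(TPM + 0.1) to 0.311, 0.57 and 0.245. Library sizes alone gave 6288 genes higher and 1063 lower on day 1, 8229 and 1660 on day 7 against sham and 4770 and 2173 between the days, where TMM gave 3360 and 3044, 4727 and 4353, and 3699 and 3496. Under library sizes alone all 10 genes were higher on day 1. DEGs were then 8 on day 1, 10 on day 7 against sham and 4 between the days. With log2(TPM + 1), 3 genes were DEGs on day 1 and 8 on day 7 against sham. With log2(TPM + 0.1), 7 were DEGs on day 1, 10 on day 7 against sham and 4 between the days. With hearts left out in turn, DEGs between the days ran from 1 to 4. The count was 1 without day 1 heart 3, day 7 heart 1 or day 7 heart 4, and 4 without day 1 heart 4. DEGs ran from 4 to 7 on day 1 and from 6 to 8 on day 7 against sham. Genes higher ran from 7 to 8 on day 1, 9 to 10 on day 7 against sham and 4 to 6 between the days.

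The day 7 minus day 1 difference of *Tlr4*, which did not pass the test, became 0.11 with library sizes alone, 0.25 with log2(TPM + 1) and 0.28 with log2(TPM + 0.1), and ran from -0.10 to 0.09 with hearts left out. That of *Cd14* became 0.08, 0.20 and 0.21, and ran from -0.20 to 0.15. None of these passed. On log2(TPM + 0.1), differences that did not pass changed sign for *Tlr1* minus *Tlr2* (-0.06), *Tlr8* minus *Tlr7* (-0.26) and *Tlr9* minus *Tlr7* (-0.06) on day 7 against sham, for *Tlr9* minus *Tlr7* between the days (-0.36), for *Tlr5* minus the leukocyte list between the days (-0.03) and for *Tlr7* minus that list on day 7 against sham (0.29). The second step minus the first step, an alternative added after seeing the data, changed sign with hearts left out for *Tlr2* (-0.22 to 0.12), *Tlr5* (-0.58 to 0.28), *Tlr6* (-0.53 to 0.24), *Tlr7* (-0.21 to 0.20) and *Tlr9* (-0.51 to 0.07), none of which passed. The cause of these shifts was not tested. Counts of 30 or fewer per library limit *Tlr5*, *Tlr6*, *Tlr8* and *Tlr9* in sham. *Tlr1* was also low in sham, with 23 to 41 counts per library.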
